A study of Mus musculus with 9 samples.

Results

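The genes described here are 9 writers, readers and scaffolds of heterochromatin: Ehmt1, Ehmt2, Setdb1, Suv39h1 and Suv39h2, which methylate histone H3 at lysine 9 (H3K9), Cbx1, Cbx3 and Cbx5, which encode the heterochromatin protein 1 (HP1) family, and Trim28, a corepressor scaffold. They were chosen by name for their known part in H3K9 methylation and heterochromatin binding and not for their values, and all 9 were found among the 24421 genes with counts and among the 19775 tested. RNA was sequenced from whole main olfactory epithelium (MOE), the nasal tissue in which olfactory sensory neurons (OSNs) lie, of mice aged 14 days after birth and labelled C57BL/6. The study's methods name C57BL/6J zygotes for the editing and give mixed C57BL/6J and 129 backgrounds for its mouse lines in general. The line carries a CRISPR-Cas9 deletion of TAAR enhancer 2, a regulatory element within the cluster of trace amine-associated receptor (Taar) genes. There were 3 libraries of each genotype: both alleles intact (wild type, WT), 1 allele deleted (heterozygous, het) and both deleted (homozygous, homo). All groups came from 1 established line, the genotypes were littermates, and animals of both sexes were used. The deletion is carried by every cell of the animal, the tissue was not sorted, and the element is not a gene, so that the counts hold no direct check of the genotype labels. The study counts the 3 libraries of a genotype as 3 mice.

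Heterochromatin is the compact, silent state of chromatin that is marked by methylated H3K9 and often by trimethylated lysine 20 of histone H4 (H4K20). EHMT1 and EHMT2 work as a heterodimer that adds the mono- and dimethyl marks, SETDB1 and the SUV39H enzymes add the trimethyl mark, and HP1 proteins bind the methylated tail through their chromodomain and can bring further writers, which lets the state spread. TRIM28 links KRAB zinc finger proteins to SETDB1 and HP1. In OSNs, the arrays of odorant receptor (OR) genes are packed in such chromatin. Each neuron expresses a single receptor allele while the others stay silent, so that these enzymes and binders belong to the machinery by which OR genes are kept off. The study found the trimethyl mark of H3K9 on the Taar cluster in sorted OSNs enriched for Taar expression. It did not find the mark there in the other sorted cells, mainly OSNs expressing OR genes, and says that Taar genes might be silenced differently in those. The comparisons below asked whether the RNA of these enzymes and binders in whole MOE differs when TAAR enhancer 2 is lost from 1 or both alleles. By the study's account, OSNs that express Taar genes are a very small part of whole MOE. A change confined to those neurons could stay hidden in the values below.

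The libraries held 20527992 to 32262005 counts. Levels are given as CPM, reads of a gene for a library scaled to a standard size with TMM. The biological coefficient of variation over all genes was 23.3%. The libraries of replicate number 1 stood apart from those of numbers 2 and 3 in all 3 genotypes. The labels do not say what the number stands for. The tissue label was checked against marker genes fixed as lists. The 10 markers of mature OSNs (Omp, Gnal, Adcy3 and others) summed to between 7034 and 8114 CPM in the 9 libraries, and the 5 markers of sustentacular cells, the support cells of the epithelium, to between 2567 and 5953 CPM. Of the 11 blood and immune markers, the 4 globin genes Hba-a1, Hba-a2, Hbb-bs and Hbb-bt were at 0 in all libraries. The annotation used and the handling of reads that match several genes are not given. These values of 0 therefore do not show that globin RNA was absent from the tissue. Of the markers in all lists, 0 were called between homo and WT. Xist, the RNA of X inactivation, was at 2344 to 3078 CPM in WT replicates 1 and 2, het replicate 2 and homo replicates 2 and 3, and at 1.18 to 1.94 CPM in the other 4 libraries. Because the MOE is a mixture of cell types, fewer cells of a type and less RNA per cell cannot be told apart in any value below.

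None of the 9 genes passed the test between genotypes. A gene was called where its edgeR quasi-likelihood p, adjusted by Benjamini-Hochberg over all 19775 tested genes, was under 0.05 and its fold change was over 1.5. In homo against WT, 0 of 9 genes were called, beside 0.0202% of all tested genes (4 genes). In het against WT it was again 0 of 9, where 0% of all genes were called, and in homo against het 0 of 9 beside 0.00506%. A joint test of both genotype coefficients, which has no fold limit, gave 0 of 9 beside 0.00506%. At an unadjusted edgeR p under 0.05 there were also 0 of 9 in each of these comparisons, whereas 682, 253, 131 and 274 genes of all those tested had such a p. DESeq2 and limma-voom gave 0 of 9 by both measures too. The fitted log2 fold change of homo against WT ranged from −0.074 (Ehmt2) to 0.17 (Suv39h2), with 8 genes higher and 1 lower and a median of 0.079, beside a median of 0.0040 over all tested genes. For het against WT it ranged from −0.081 (Ehmt2) to 0.20 (Suv39h2), with 6 higher and 3 lower, and for homo against het from −0.042 (Cbx3) to 0.11 (Suv39h1). These comparisons share libraries with each other and are not separate evidence. The 95% interval of the homo against WT difference lay within 1.5-fold in both directions for 8 of 9 genes, and for 50.3% of all tested genes. The exception was Suv39h2. With a term for replicate number 1 in the fit its interval was −12.7% to 48.0%, which lay within 1.5-fold too. For het against WT the interval of the main fit lay within 1.5-fold for 8 of 9 genes, and for homo against het for 9 of 9.

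**Figure D1:**
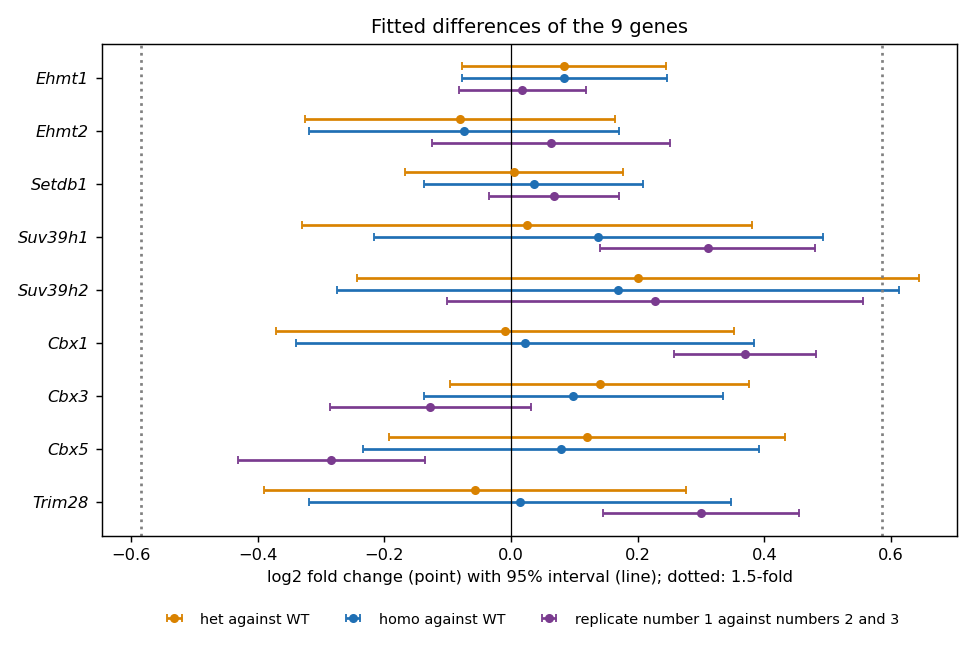
Fitted log2 fold change (point) and 95% interval (line) of each of the 9 genes for het against WT, for homo against WT and for replicate number 1 against numbers 2 and 3, with dotted lines at 1.5-fold. All genotype intervals include 0, and the intervals of Suv39h1, Cbx1, Cbx5 and Trim28 for the replicate number do not.

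Ehmt1 and Ehmt2 encode GLP and G9a, the partners of the mono- and dimethyltransferase. Ehmt1 lies on chromosome 2 (24790769 to 24919643, minus strand, RefSeq on GRCm38.p6, the patch release of mm10). Its level was 75.7, 77.1 and 73.0 CPM in WT replicates 1, 2 and 3, 78.3, 81.1 and 79.8 CPM in het, and 82.7, 77.3 and 79.3 CPM in homo. Every het and every homo library was above every WT library, and Ehmt1 was the 1 gene of the 9 whose libraries separated by genotype. Over all tested genes, 2.97% had every homo library above every WT library and 2.01% every het library above every WT library, and both separations use the same 3 WT libraries. Between homo and het, 0 of the 9 genes separated, beside 2.35% of all tested genes in which every homo library was the higher. The gap between the highest WT library and the lowest homo library was narrow. The fitted difference from WT was 5.98% in homo (95% interval −5.25% to 18.5%, edgeR p 0.272 before and 1 after adjustment) and 5.95% in het (−5.28% to 18.5%, edgeR p 0.274 before adjustment), and neither passed. Ehmt1 was also the steadiest of the 9 genes. The standard deviation between libraries of a genotype was 2.73% of its mean, and only 0.426% of the 11514 genes with a mean of at least 10 CPM had a smaller value.

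Ehmt2 (chromosome 17, 34898463 to 34914073, plus strand) was at 137, 114 and 152 CPM in WT, at 134, 129 and 118 CPM in het, and at 129.7, 128 and 125 CPM in homo. The WT libraries were spread most, and both other genotypes lay inside their range. The homo difference was −5.00% (95% interval −19.8% to 12.6%, edgeR p 0.513 before adjustment). Over the fits that each left out 1 library the log2 value was lowest (−0.18) when WT replicate 2 was dropped and highest (0.013) when WT replicate 3 was dropped. The ratio of Ehmt2 to Ehmt1, per kilobase of exon, was 2.65 ± 0.44 (SD) over the WT libraries, 2.36 ± 0.17 over het and 2.37 ± 0.075 over homo, n = 3 each, with overlapping libraries.

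Setdb1 encodes an enzyme that adds the trimethyl mark and silences retroelements and genes outside the centromeres. It lies on chromosome 3 (95323525 to 95357202, minus strand). The gene was at 93.0, 93.2 and 95.9 CPM in WT, at 101, 92.4 and 89.8 CPM in het, and at 99.9, 95.2 and 94.1 CPM in homo. All 3 genotypes overlapped, and the homo difference was 2.51% (95% interval −9.05% to 15.5%, edgeR p 0.652 before adjustment). Setdb1 was the second steadiest of the 9 genes, with 4.10% spread within a genotype. Of its exon bases, 4.7% overlap Cers2 and Gm37500 on the opposite strand, and the strand setting of the counting is not given in the sources used here, so that a share of its counts is uncertain.

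Suv39h1 and Suv39h2 encode the enzymes that add the trimethyl mark to the heterochromatin around centromeres. Suv39h1, on chromosome X (8061171 to 8074760, minus strand), was at 33.9, 25.7 and 26.4 CPM in WT, at 32.9, 29.7 and 24.9 CPM in het, and at 35.8, 30.1 and 28.7 CPM in homo. Its difference between homo and WT was 9.98% (95% interval −14.0% to 40.6%, edgeR p 0.405 before adjustment). With the Xist level as a covariate in the fit the log2 value was 0.13, beside 0.14 without it. Suv39h2, on chromosome 2 (3455815 to 3474986, minus strand), had the fewest reads of the 9 genes, with 148 to 247 raw counts per library. It was at 8.63, 7.64 and 5.45 CPM in WT, at 9.84, 7.86 and 7.25 CPM in het, and at 7.71, 8.47 and 8.21 CPM in homo. WT replicate 3 was the lowest library, and the groups overlapped. The homo difference was 12.4% (95% interval −17.3% to 52.8%, edgeR p 0.413 before adjustment), the widest interval of the 9 and the one that reaches past 1.5-fold in the main fit. In the libraries of numbers 2 and 3 alone, where WT replicate 3 weighs more, the log2 value was 0.34 (edgeR p 0.138 before adjustment), and without WT replicate 3 it was −0.0079. For both genes part of the exon bases overlaps genes on the opposite strand, 14.6% for Suv39h1 (Gm14820) and 10% for Suv39h2 (Dclre1c and Gm13184), which leaves their counts uncertain to that degree.

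The HP1 family reads the mark that the enzymes write. Cbx1 encodes HP1 beta, Cbx3 HP1 gamma and Cbx5 HP1 alpha. The 250 bases before the first start site listed for each are shown as a description, and a link between these letters and the levels was not tested. The stretches of Cbx1 and Cbx3 lie inside the RefSeq spans of these genes given below, which begin further upstream. That of Cbx5 overlaps its span in part. The sequences are from RefSeq on GRCm38.p6, with every CpG in capitals. Cbx1 was read from chr11:96788885-96789134 on the plus strand, Cbx3 from chr6:51470366-51470615 on the plus strand and Cbx5 from chr15:103239853-103240102 on the minus strand.
Cbx1: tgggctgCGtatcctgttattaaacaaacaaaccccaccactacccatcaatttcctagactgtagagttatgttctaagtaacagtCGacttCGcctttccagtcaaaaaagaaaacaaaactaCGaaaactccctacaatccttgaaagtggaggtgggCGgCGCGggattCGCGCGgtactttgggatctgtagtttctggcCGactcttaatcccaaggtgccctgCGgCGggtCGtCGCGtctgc
Cbx3: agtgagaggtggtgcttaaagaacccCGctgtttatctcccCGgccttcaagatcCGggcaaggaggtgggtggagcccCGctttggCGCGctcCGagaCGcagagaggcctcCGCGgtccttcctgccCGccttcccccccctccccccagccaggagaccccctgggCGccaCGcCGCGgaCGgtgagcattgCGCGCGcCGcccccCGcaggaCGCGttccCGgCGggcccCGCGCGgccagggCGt
Cbx5: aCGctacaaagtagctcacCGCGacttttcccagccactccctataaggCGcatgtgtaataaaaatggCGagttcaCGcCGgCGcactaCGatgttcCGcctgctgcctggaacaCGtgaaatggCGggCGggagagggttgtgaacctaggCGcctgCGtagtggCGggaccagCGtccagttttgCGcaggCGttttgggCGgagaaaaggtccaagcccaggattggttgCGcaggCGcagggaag

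These stretches hold 16 CpG in Cbx1, 29 in Cbx3 and 22 in Cbx5, beside a median of 6 over the 32851 annotated promoters of the same length. All 9 genes had an entry, with 13 start sites in all, and the first start sites of the 9 held between 11 and 29 CpG. The second start sites, not shown, held 36 CpG in Ehmt2, 25 in Suv39h1, 31 in Cbx3 and 7 in Cbx5. A GC box (GGGCGG on either strand) was found in 9 of 9 first start sites and in 32.7% of all promoters. The second start site of Cbx3 held 0. The motifs that follow are those of the first start sites. A CCAAT box (CCAAT on either strand) was found in Setdb1, Suv39h1 and Cbx5, and in 33.8% of all promoters. A TATA box (TATAAA on either strand) was found in 0 of 9 and in 12.4% of all promoters. An E2F-type motif (TTTCCCGC or TTTGGCGC on either strand) was found in Cbx3 alone of the 9, and in 1.3% of all promoters. A GC box and a CpG share letters, so the high counts of both are not separate features. A match describes the letters and does not show a factor bound there.

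Cbx1 (chromosome 11, 96788680 to 96808982, plus strand) was at 89.5, 73.1 and 66.3 CPM in WT, at 88.2, 70.5 and 68.6 CPM in het, and at 92.5, 72.6 and 67.3 CPM in homo. In each genotype the library of number 1 was the highest, and the genotypes overlapped almost fully. The homo difference was 1.52% (95% interval −21.0% to 30.4%, edgeR p 0.895 before adjustment). For het the fitted log2 value was −0.0098, and it was 0.012 when only library totals were used for scaling. Cbx3 (chromosome 6, 51470154 to 51483704, plus strand) was at 75.7, 81.9 and 69.1 CPM in WT, at 73.9, 84.8 and 91.1 CPM in het, and at 75.8, 85.2 and 81.6 CPM in homo. The het difference from WT was 10.2% (95% interval −6.42% to 29.8%, edgeR p 0.213 before adjustment), which was the smallest p of the 9 genes in a genotype comparison and did not pass. Of the 50-base windows of Cbx3, 91.3% occur in no other gene, and the others are shared with its pseudogenes Cbx3-ps6 and Cbx3-ps7 among others, so that its counts carry that uncertainty.

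Cbx5 (chromosome 15, 103191546 to 103239904, minus strand) was at 135, 186 and 156 CPM in WT, at 149, 179 and 190.4 CPM in het, and at 153, 173 and 178 CPM in homo. Here the library of number 1 was the lowest in each genotype. The homo difference was 5.66% (95% interval −14.9% to 31.2%, edgeR p 0.581 before adjustment). Summed over the 3 HP1 genes, the level was 311 ± 26.4 CPM (SD) over the WT libraries, 332 ± 19.8 CPM over het and 326 ± 4.63 CPM over homo, n = 3 each, with overlapping libraries.

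Trim28 (chromosome 7, 13024152 to 13031032, plus strand) was at 165, 123 and 139 CPM in WT, at 154, 140.0 and 116 CPM in het, and at 165, 129 and 138 CPM in homo. As for Cbx1, the library of number 1 was the highest of each genotype. The homo difference was 1.01% (95% interval −19.8% to 27.2%, edgeR p 0.924 before adjustment).

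**Figure D2:**
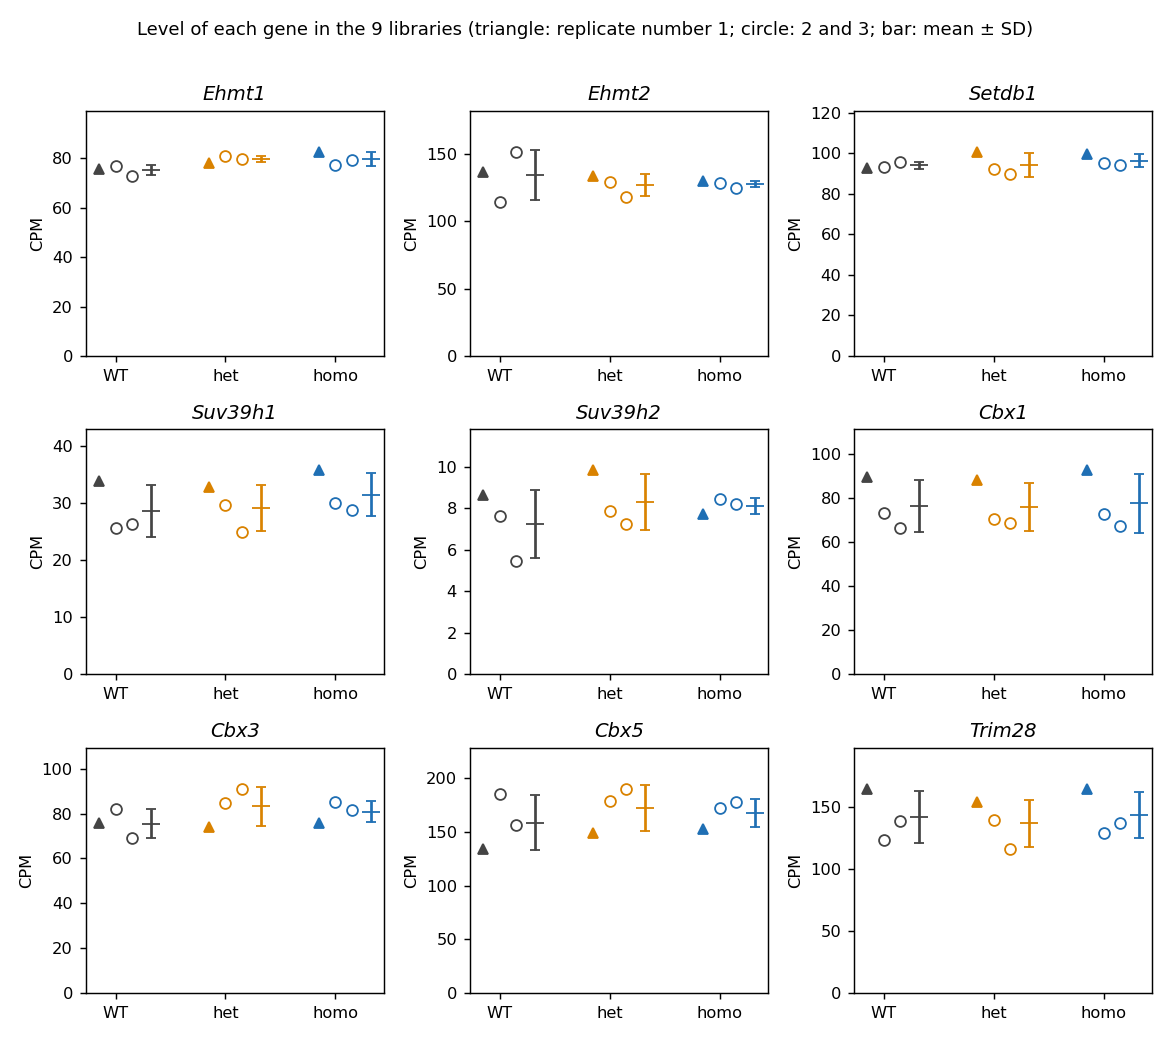
Level (CPM, axes from 0) of each of the 9 genes in the 9 libraries by genotype, with triangles for replicate number 1, circles for numbers 2 and 3, and the mean ± SD of each genotype (n = 3) beside them. The genotypes overlap for 8 of 9 genes, and the triangles stand above the circles for Suv39h1, Cbx1 and Trim28 and below them for Cbx5.

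The levels of the 9 genes were compared with each other per kilobase of exon (RPKM, which is CPM divided by the length of the exons in kilobases), since a longer gene collects more reads. Trim28 had the highest mean with 33.9 RPKM, followed by Ehmt2 (23.6), Cbx5 (18.5), Cbx1 (17.9), Setdb1 (13.9), Cbx3 (13.3), Ehmt1 (9.64), Suv39h1 (5.66) and Suv39h2 (1.79), each a mean over 9 libraries. Of the 8 pairs of neighbours in this order, 6 differed in all 9 libraries (exact two-sided sign-flip permutation p 0.00391, the smallest that 9 libraries can give, adjusted p 0.00521). The order was taken from the same 9 libraries and holds for these lengths. The p-values describe the pairs and are not separate evidence for the order. Cbx5 and Cbx1 did not differ in 1 direction over the libraries (exact permutation p 0.664, Cbx5 higher in 6 of 9). Their RPKM ratio was 0.71 to 0.80 in the libraries of number 1 and 1.12 to 1.32 in the others. That p therefore does not show that the 2 genes are at a like level. Setdb1 and Cbx3 did not differ beyond their spread (exact permutation p 0.324, Setdb1 higher in 5 of 9). The pair of SUV39H genes was unequal, with 2.79 to 4.04 times as much Suv39h1 as Suv39h2 in every library at these lengths. The size of that ratio depends on the length. Its mean log2 value was 1.66 with all exons and 2.39 with the longest transcript. The order of the middle genes depends on the length used. With the length of the longest transcript in place of all exons, Cbx1 (32.2 RPKM) and Cbx3 (27.3 RPKM) stood above Cbx5 (18.9 RPKM), while Trim28 stayed highest (43.5 RPKM) and Suv39h2 lowest (1.83 RPKM). With CPM and no length, 4 of 8 neighbour pairs passed and Cbx5 came highest.

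**Figure D3:**
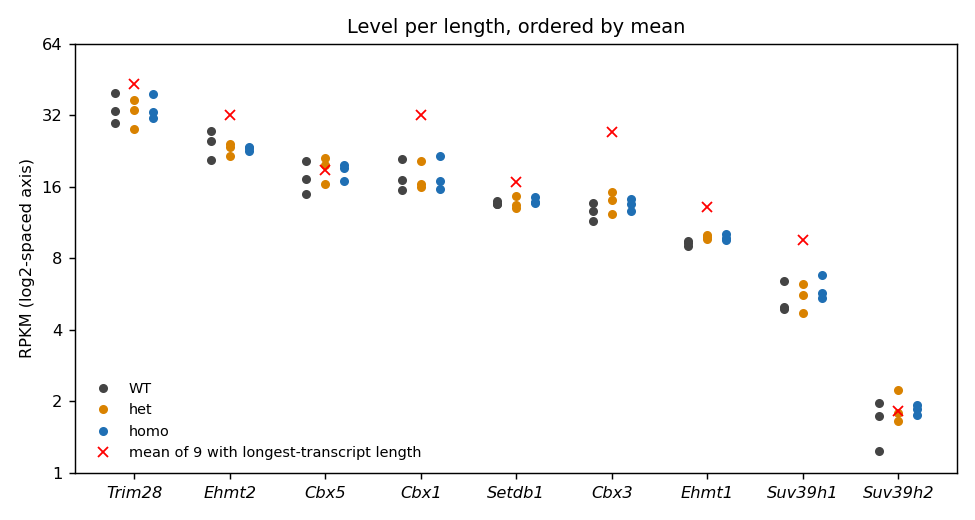
Level per length (RPKM, log2-spaced axis) of the 9 genes in the 9 libraries, coloured by genotype and ordered by mean, with crosses for the mean over 9 libraries when the longest transcript sets the length. The dots fall from 33.9 RPKM for Trim28 to 1.79 RPKM for Suv39h2, and the crosses of Cbx1 and Cbx3 lie well above their dots.

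The libraries were also compared by replicate number. In a fit with genotype and an indicator of replicate number 1, 0 of 9 genes were called with the fold limit of 1.5, beside 8.95% of all tested genes. With adjusted p alone, 3 of 9 were higher in number 1, beside 17% of all tested genes, and 1 of 9 was lower, beside 14.7%. In either direction that is 4 of 9 (44.4%), beside 31.6% of all tested genes, so that the count says little about these genes in particular. Cbx1 was 90.1 ± 2.21 CPM in the 3 libraries of number 1 and 69.7 ± 2.80 CPM in the other 6 (SD), a log2 difference of 0.37 (SE 0.05, edgeR adjusted p 0.00105). Trim28 was 161 ± 6.03 against 131 ± 9.72 CPM (log2 0.30, SE 0.07, edgeR adjusted p 0.0108) and Suv39h1 was 34.2 ± 1.47 against 27.6 ± 2.19 CPM (log2 0.31, SE 0.07, edgeR adjusted p 0.0140). Cbx5 was lower, at 145 ± 9.63 against 177 ± 11.9 CPM (log2 −0.28, SE 0.06, edgeR adjusted p 0.0112). For each of these 4 genes the 3 libraries of number 1 did not overlap the other 6, as for 17.8% of all tested genes on the higher side and 16.2% on the lower side. The log2 difference was 0.23 (SE 0.14) for Suv39h2, −0.13 (SE 0.07) for Cbx3, 0.067 (SE 0.045) for Setdb1, 0.063 (SE 0.083) for Ehmt2 and 0.018 (SE 0.044) for Ehmt1, and none of these 5 passed. The count of 4 was 2 without WT replicate 1, 1 without het replicate 1 (Cbx1) and 2 without homo replicate 1. The differences stayed about as large, with all 4 genes at an unadjusted edgeR p under 0.05 in these fits. Over the 9 fits that each left out 1 library the log2 value was 0.35 to 0.39 for Cbx1, 0.28 to 0.36 for Suv39h1, 0.27 to 0.35 for Trim28 and −0.32 to −0.25 for Cbx5. With the term for replicate number 1 in the model the fitted log2 values hardly moved. In homo against WT they were 0.084 for Ehmt1, 0.019 for Cbx1 and 0.085 for Cbx5, and 0 of 9 genes were called. The SE of each gene was smaller in that comparison. It was 0.058 for Cbx1 in place of 0.161, 0.079 for Trim28 in place of 0.148 and 0.074 for Cbx5 in place of 0.139. The genotype intervals of the single genes given above come from the fit without this term, which leaves the replicate number split in the spread.

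Markers of several cell types moved with the replicate number. Over all tested genes, 17% were higher and 14.7% lower in number 1 by adjusted p. The cell cycle list summed to 789 to 840 CPM in the libraries of number 1 against 534 to 781 CPM in the others (4 of 10 higher by adjusted p), the immature OSN list to 1687 to 1704 CPM against 1229 to 1525 CPM (3 of 6 higher), the horizontal basal cell list to 155 to 245 CPM against 78.9 to 109 CPM (3 of 4 higher), and the list of cartilage, bone and stroma to 10517 to 11330 CPM against 6283 to 8015 CPM (3 of 6 higher). Blood and immune markers summed to 117 to 133 CPM in number 1 and to 152 to 886 CPM in the others, with 3 of 7 tested genes lower. The mature OSN list overlapped, at 7138 to 7639 CPM against 7034 to 8114 CPM, as did the sustentacular list (4862 to 5169 CPM against 2567 to 5953 CPM), the multiciliated list (659 to 707 CPM against 506 to 667 CPM) and the list of gland and secretory cells (5048 to 5462 CPM against 5056 to 7451 CPM). By adjusted p, 2 of the 10 mature OSN markers were higher and 1 lower. It was 0 of 5 for sustentacular cells, 2 of 5 higher for multiciliated cells, and 1 higher and 1 lower of 6 for gland and secretory cells. The part of these cell types in the values of Cbx1, Suv39h1, Trim28 and Cbx5 was not tested. The libraries of number 1 were also the 3 with the fewest counts. The length of the longest transcript and the log2 difference for number 1 had a Spearman correlation of −0.020 across 19019 genes.

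As Cbx1 and Cbx5 stood on opposite sides, the make-up of the HP1 transcripts varied with the replicate number. The summed HP1 level was 299.8 to 321 CPM in the libraries of number 1 and 291 to 350.1 CPM in the others. Cbx1 made up 43.2%, 41.7% and 42.2% of the summed HP1 RPKM in the number 1 libraries of WT, het and homo, and 30.6% to 35.0% in the other 6. The share of Cbx5 was 30.8%, 33.4% and 33.1% in the same libraries and 38.1% to 40.3% in the others. Cbx3 held 24.7% to 29.0% throughout. The size of these shares depends on the length used, here all exons. With the longest transcript the mean over 9 libraries was 32.2 RPKM for Cbx1, 27.3 for Cbx3 and 18.9 for Cbx5. The ratio of Cbx5 to Cbx1 in CPM, which no gene length affects beyond a constant, was 1.5 to 1.69 in number 1 and 2.36 to 2.77 in the other libraries. By genotype the ratio was 2.13 ± 0.55 (SD, n = 3) for WT, 2.33 ± 0.57 for het and 2.23 ± 0.51 for homo.

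**Figure D4:**
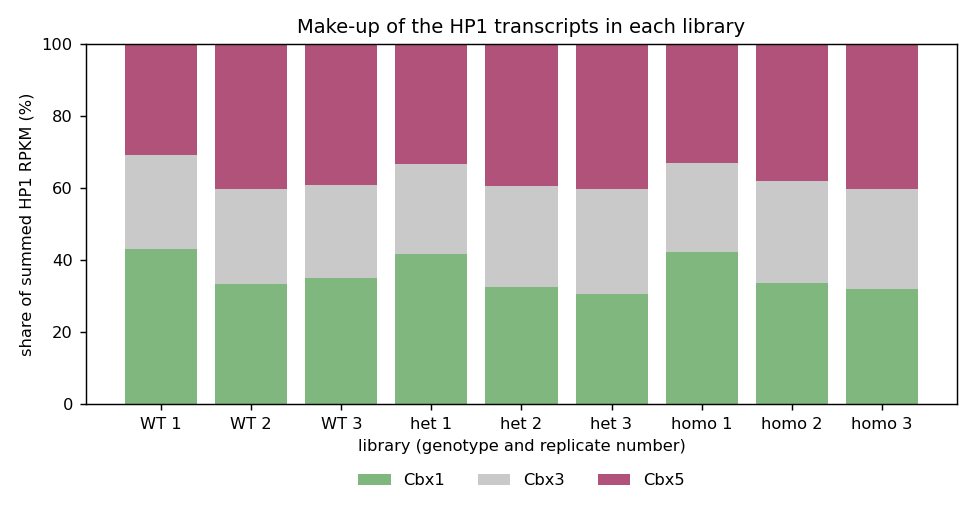
Share (%) of Cbx1, Cbx3 and Cbx5 in the summed HP1 RPKM of each of the 9 libraries, with all exons as the length. Cbx1 holds 41.7% to 43.2% in the libraries of number 1 and 30.6% to 35.0% in the others, in all 3 genotypes alike.

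Pearson correlations of log2 CPM between the 9 genes are given as a description over 9 libraries, which share the replicate number split, depth and tissue make-up. Of the 36 pairs, 10 had r above 0.5 and 9 below −0.5. Suv39h1, Cbx1 and Trim28 formed the tightest group (r 0.91 for Suv39h1 with Trim28 and 0.86 with Cbx1), and r for the first pair was 0.95 after the genotype means were taken out. Cbx3 and Cbx5 varied together (r 0.78). Cbx5 varied against that group (r −0.89 with Trim28, −0.75 with Suv39h1 and −0.74 with Cbx1), and Cbx3 did so less (r −0.68, −0.40 and −0.39). The dimer partners Ehmt1 and Ehmt2 had r −0.53. The gene most like the mean profile of the 9 was 4931428F04Rik (r 0.99), followed by Ndrg4 (0.99) and Srgap1 (0.98), among 11506 genes with at least 10 CPM. For single genes the most alike were Spata24 for Ehmt1 (r 0.94), Klhl18 for Ehmt2 (0.98), Slc52a2 for Setdb1 (0.96), Fam189b for Suv39h1 (0.98), Gm4285 for Suv39h2 (0.96), 2010300C02Rik for Cbx1 (0.99), Zfp932 for Cbx3 (0.97), Tmem106b for Cbx5 (0.98) and Agap3 for Trim28 (0.99).

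**Figure D5:**
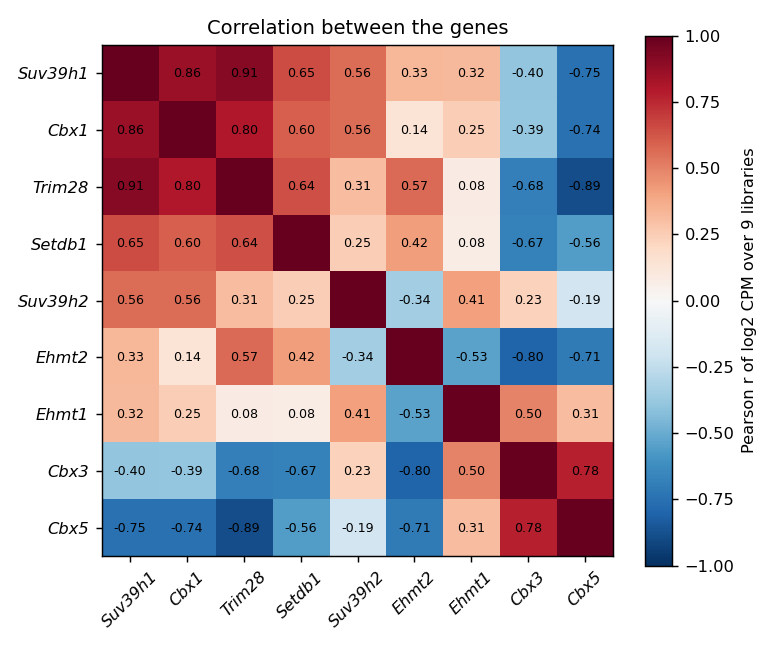
Pearson r of log2 CPM over 9 libraries for each pair of the 9 genes (colour from −1 to 1, with r printed in each square). Suv39h1, Cbx1 and Trim28 are positively correlated with each other, and Cbx5 is negatively correlated with all 3 of them.

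The other genes of the pathway were taken as a list of 42. In homo against WT, het against WT and homo against het, 0 of 42 were called, beside 0.0202%, 0% and 0.00506% of all tested genes. At an unadjusted edgeR p under 0.05 there were 0 of 42 in each, beside 3.4%, 1.3% and 0.66% of all tested genes. In homo against WT 29 were higher and 13 lower, with a median log2 value of 0.029 and a range from −0.24 (Adnp) to 0.18 (Uhrf1). Of all tested genes, 10130 were higher and 9631 lower, with a median of 0.0040. The list begins with the H4K20 methyltransferases. Setd8 (Kmt5a), which adds the first methyl group, was at 195 ± 43.7 CPM in WT and 198 ± 39.2 CPM in homo (SD, n = 3). Suv420h1 (Kmt5b) was at 152 ± 16.6 and 155 ± 14.5 CPM, and Suv420h2 (Kmt5c) at 101 ± 21.2 and 107 ± 8.26 CPM. Of the H3K9 demethylase genes, Kdm3a was at 198 ± 25.7 CPM in WT and 188 ± 9.33 CPM in homo, Kdm3b at 187 ± 17.3 and 191 ± 2.86 CPM, and Jmjd1c at 232 ± 35.0 and 241 ± 12.3 CPM. Kdm1a, the LSD1 demethylase that takes part in receptor choice, was at 123 ± 3.69 CPM in WT and 121 ± 6.45 CPM in homo, a log2 value of −0.017 (SE 0.078). Among the other H3K9 methyltransferases, Prdm2 was at 147 ± 11.4 and 145 ± 3.31 CPM. Atrx, a chromatin remodeller that sits at heterochromatin, was at 413 ± 93.3 CPM in WT and 423 ± 26.9 CPM in homo, and the DNA methyltransferase gene Dnmt3a at 295 ± 4.60 and 302 ± 4.56 CPM. Fam208a (Tasor), a subunit of the HUSH complex that works with SETDB1, was at 150.3 ± 28.7 and 156 ± 39.4 CPM.

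The pathway list was also compared between replicate numbers. With adjusted p alone 19 of 42 passed, 14 higher in number 1 beside 17% of all tested genes and 5 lower beside 14.7%, and 3 of 42 passed the fold limit as well, beside 8.95%. Those 3 were Adnp (log2 1.57, SE 0.18), Chaf1b (0.91, SE 0.11), a subunit of the histone chaperone CAF-1, and Wiz (0.75, SE 0.06), a partner of the EHMT dimer. Their edgeR adjusted p-values were 5.3e-04, 6.6e-04 and 1.7e-04. Adnp had only 65 to 221 raw counts per library. The H4K20 enzymes were on both sides, with Setd8 (log2 0.46, SE 0.05) and Suv420h2 (0.33, SE 0.07) higher and Suv420h1 (−0.23, SE 0.05) lower. Uhrf1 (0.43, SE 0.08) and Dnmt1 (0.35, SE 0.07), which maintain DNA methylation through replication, were higher, and Fam208a (−0.55, SE 0.09) and Lbr (−0.46, SE 0.09), a protein of the nuclear envelope that binds HP1, were lower. Also higher were Lmna (0.51, SE 0.10), Lmnb1 (0.38, SE 0.08) and Lmnb2 (0.23, SE 0.07) of the nuclear lamina, Phf2 (0.30, SE 0.06) and Phf8 (0.18, SE 0.05), Chaf1a (0.28, SE 0.07) and Atf7ip (0.26, SE 0.06), a partner of SETDB1, and the demethylase genes Kdm7a (−0.42, SE 0.08) and Kdm3a (−0.20, SE 0.06) were lower. Each of these passed by edgeR adjusted p. Kdm1a (0.099), Zfp644 (−0.26) and Smchd1 (−0.23) had an unadjusted p under 0.05 only. The same marker lists moved with these values, and their part was not tested.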

How the data were processed

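RNA was measured in 9 libraries of whole MOE. Per the submitters' processing notes and the study's methods, polyA-selected directional libraries were trimmed with Trimmomatic 0.36 and mapped to mm10 (GRCm38) with HISAT2 2.1.0. The raw counts deposited by the authors, 1 row per gene symbol, came from featureCounts (Subread 1.6.2). They also deposited a signal, normalized counts, in which DESeq2 1.20.0 divided each raw count by 1 size factor per library. Which annotation, strand setting and multi-mapping rule were used is not given in the sources used here.

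Raw counts were tested with edgeR 4.0.16 in R 4.3.3 (quasi-likelihood F test, TMM, at least 10 counts summed over 9 libraries, 1 spread estimate for all groups, Benjamini-Hochberg over all tested genes). A call needed an adjusted p under 0.05 and a fold change over 1.5. The SE of a log2 value came from the F statistic, and 95% intervals from its t distribution. CPM used TMM library sizes. RPKM used exon-union lengths from GENCODE M21 on GRCm38, since the RefSeq lengths first chosen are genomic spans, with a prior of 0.5 counts in the log2 values. Neighbouring levels were compared by exact sign-flip permutation. All tests were two-sided, and the edgeR procedure was tested on simulated data.

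Genes named come from the 9 genes, pathway genes at an unadjusted p under 0.05 or among up to 3 of highest mean level per role, the most similar genes (Pearson r), and marker genes. Some pathway genes and a marker list covered by this rule are not reported here. The genes, lists and tests were chosen with earlier results of these data known. Over 16156 genes, deviations from the group means correlated between same-numbered libraries at 0.672, 0.450 and 0.607 for het with WT, at 0.786, 0.317 and 0.128 for homo with het, and at 0.516, 0.293 and −0.097 for homo with WT. All same-numbered pairs were above a limit of 0.1 for het with WT and for homo with het, and not all were for homo with WT. Different-numbered libraries correlated at −0.734 (het 3 with WT 1) to 0.587 (homo 3 with het 2). The main tests used genotype only and no pairing, and a replicate block was run as an alternative. Alternatives were RLE size factors, library totals, other filters, DESeq2 1.42.0, limma-voom (limma 3.58.1), fits of 2 groups, a replicate block, a term for replicate number 1, an Xist covariate and leaving out each library.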

Additional observations from a re-analysis of the deposited data

How the results depend on the processing

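Of 844 values computed under the alternatives, 775 were rated the same as in the main fit. For a log2 value this means the same sign and the same outcome of the test. For a count it means a count equal to the main one or within 1.5-fold of it. In every alternative run, 0 of the 9 genes and 0 of the 42 pathway genes were called between genotypes. A fit with a replicate block gave 0 of 9 in each genotype comparison, and the block changed no call. The smallest unadjusted p of the 9 genes over all alternatives was 0.0918 in homo against WT and 0.0684 in het against WT. The cause of the sign changes was not tested. For Ehmt1 in homo against het the value was −0.0081 with RLE size factors, −0.0029 with library totals, −0.0060 with no filter, −0.0040 with filterByExpr, −0.0088 with DESeq2, −0.0011 with limma-voom, −0.0059 in the fit of 2 groups, −0.00011 with the term for replicate number 1 and −0.0020 with the Xist covariate. Ehmt2 in homo against het was −0.0013 with RLE size factors and with DESeq2. Setdb1 in het against WT was −0.015 with the Xist covariate, and Cbx1 in het against WT was 0.012 with library totals. In the libraries of numbers 2 and 3 alone, an alternative chosen after seeing the data, Setdb1 was −0.0031 and Cbx1 −0.00019 in homo against WT, Setdb1 was −0.051 in het against WT, and Ehmt1 was −0.047, Suv39h2 0.14 and Cbx1 −0.00012 in homo against het.

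Over the 9 fits that each left out 1 library, the log2 value in homo against WT ranged from −0.18 to 0.013 for Ehmt2, from −0.0079 to 0.32 for Suv39h2, from −0.12 to 0.16 for Cbx1, from −0.017 to 0.20 for Cbx5 and from −0.092 to 0.15 for Trim28. It kept its sign for Ehmt1 (0.053 to 0.099), Setdb1 (0.012 to 0.061), Suv39h1 (0.038 to 0.29) and Cbx3 (0.028 to 0.16). In het against WT it ranged from −0.18 to 0.0080 for Ehmt2, from −0.046 to 0.039 for Setdb1, from −0.069 to 0.18 for Suv39h1, from −0.13 to 0.13 for Cbx1 and from −0.15 to 0.076 for Trim28, and kept its sign for Ehmt1 (0.055 to 0.10), Suv39h2 (0.025 to 0.35), Cbx3 (0.072 to 0.22) and Cbx5 (0.026 to 0.25). In homo against het it ranged from −0.031 to 0.015 for Ehmt1, from −0.043 to 0.045 for Ehmt2, from −0.0035 to 0.082 for Setdb1, from −0.12 to 0.11 for Suv39h2, from −0.12 to 0.15 for Cbx1, from −0.12 to 0.027 for Cbx3, from −0.14 to 0.034 for Cbx5 and from −0.041 to 0.17 for Trim28, and kept its sign for Suv39h1 (0.0076 to 0.21). For replicate number 1 against the others, Ehmt1 ranged from −0.0015 to 0.046, and the count of genes past adjusted p with no fold limit, a count added after seeing the data, ranged from 1 to 5. Without WT replicate 3, Cbx3 passed as well (log2 −0.17, edgeR adjusted p 0.0211). With 3 libraries per genotype, Suv39h2, the gene with the fewest counts, had the widest interval.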
